A study of Mus musculus with 19 samples.

Results

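The genes described here are 10 that mouse astrocytes are known to raise when they become reactive: Gfap, Vim, Serpina3n, Lcn2, Cd44, Osmr, S1pr3, Steap4, Cp and Hspb1. They were chosen by symbol, with earlier results of these data known. All 10 were found among the 20655 genes of the deposited count table through their Ensembl identifiers. The data are bulk RNA libraries of the left hippocampus, 1 from each of 19 mice aged 4 months, made to ask what a knock-in at the clusterin gene does in a model of amyloid disease. The groups were females homozygous for the knock-in CLUh2kbKI on a 5xFAD background (n = 4), males of that genotype (n = 5), 5xFAD females without the knock-in (n = 5) and 5xFAD males without it (n = 5). Every animal was hemizygous for 5xFAD, a set of human transgenes with familial Alzheimer's disease mutations that the Thy1 promoter drives in neurons, so none of the levels below comes from a brain free of amyloid transgenes. The labels name the knock-in allele without giving the sequence it changes, and name no treatment.

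Reactive astrocytes are astrocytes that have altered their shape, their secretion and their gene expression in response to injury, infection or protein deposits. In mouse, a core set of such genes rises both after systemic endotoxin and after stroke, while other sets, called A1 and A2, are more typical of the first or of the second. Around amyloid plaques, astrocytes enlarge and fill with intermediate filaments of GFAP and vimentin, and cytokines of the interleukin-6 family, acting through the gp130 receptor and the transcription factor STAT3, are a well known route to this state. Clusterin, a secreted chaperone and lipid carrier, is itself made largely by astrocytes in brain.

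Total depth was 17.28 to 25.2 M estimated counts per library (M stands for mega). Levels are given as CPM, a gene's counts relative to a library size adjusted by TMM, and log2 changes and adjusted p values come from edgeR's quasi-likelihood test with Benjamini-Hochberg adjustment over 18204 genes and a threshold of 0.05. Astrocyte markers summed to 5707 to 6831 CPM in knock-in females, 4987 to 6318 CPM in knock-in males, 4511 to 5241 CPM in 5xFAD females and 4973 to 5888 CPM in 5xFAD males, so the tissue held astrocyte RNA in every library. Libraries differed in their long noncoding RNA, taken as the mean log2 CPM of 8 transcripts such as Malat1 and Meg3. It was 6.16 to 7.08 in knock-in females, 7.12 to 8.50 in knock-in males, 8.0 to 8.38 in 5xFAD females and 6.41 to 8.25 in 5xFAD males. The 2 female groups did not overlap in it, and 5xFAD male replicate 10, at 6.41, stood apart from the other 4 of its group, whose lowest was 7.68. Clu, the gene carrying the knock-in, was at 1204 ± 187 CPM in knock-in females, 962 ± 181 CPM in knock-in males, 983 ± 139 CPM in 5xFAD females and 976 ± 115 CPM in 5xFAD males (SD, n = 4, 5, 5 and 5). No litter, date or batch is labelled, and no animal number of one genotype lies between those of the other, so genotype cannot be told apart from anything shared within a cohort.

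Set against exonic length, the 10 genes spanned a wide range of mean levels over the 19 libraries. That length joins all annotated exons of a gene, so it can exceed the length of the transcript expressed. Gfap led at 247.7 CPM per kilobase, followed by Serpina3n at 32.4, Vim at 13.3, Hspb1 at 10.8, S1pr3 at 2.70, Cp at 1.38, Cd44 at 0.926, Osmr at 0.845, Steap4 at 0.418 and Lcn2 at 0.127 CPM per kilobase. Most neighbours in this order kept it in nearly all libraries, and Gfap exceeded Serpina3n per length in 19 of 19. Vim exceeded Hspb1 in 14 of 19 libraries, and Cd44 exceeded Osmr in 8 of 19, so Cd44 and Osmr could not be put in order. In CPM, Gfap ranked 77 among all genes tested, whereas Steap4 ranked 14928. The order depended on the length used: in CPM alone Serpina3n (66.8) and Vim (62.9) lay close. Cp (13.2) then stood above S1pr3 (12.1) and Hspb1 (11.1).

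**Figure D1:**
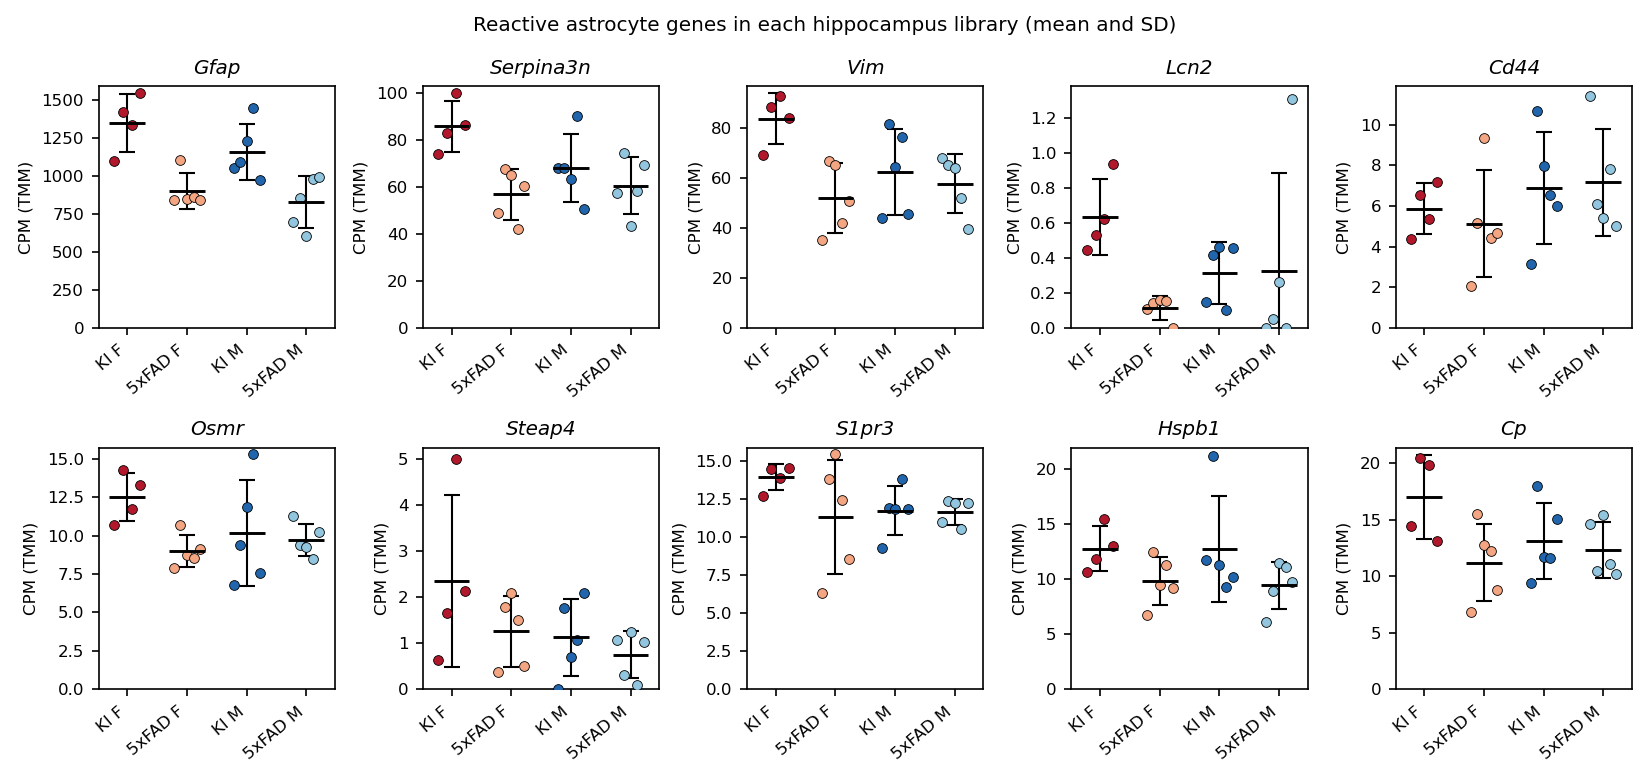
Level of each of the 10 genes in every library, in TMM-scaled CPM on axes that start at 0, with knock-in (KI) left of 5xFAD within females (F) and within males (M). Points are libraries, bars are the group mean and SD; for Serpina3n, Vim, Lcn2 and Osmr all 4 knock-in females lie above all 5 of the 5xFAD females, and the ranges overlap for every gene in males.

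Gfap (ENSMUSG00000020932, chromosome 11) encodes the main intermediate filament protein of mature astrocytes. Its level was 1098, 1426, 1336 and 1548 CPM in knock-in females, against 841, 1110.1, 849, 860 and 845 CPM in 5xFAD females. In knock-in males it was 1056, 1095, 1230.0, 1447 and 975 CPM, against 698, 858, 607, 983 and 993 CPM in 5xFAD males. Each knock-in library was above the median of the 10 5xFAD libraries, and 5 of 9 were above the highest of them. The groups overlapped through knock-in female replicate 1 and 5xFAD female replicate 2 in females, and through the lowest knock-in male, replicate 10. Gfap rose in knock-in females (log2 change 0.59, SE 0.15, edgeR adjusted p = 0.0265), a change that did not pass without knock-in female replicate 2, 4 or 5 or without 5xFAD female replicate 1 or 4 (adjusted p 0.0512 to 0.0829), nor with library size as the only scaling (edgeR adjusted p = 0.0521). In males the log2 change was 0.49 (SE 0.14, edgeR adjusted p = 0.662), with an unadjusted p of 0.0023. Over both sexes it was 0.53 (SE 0.10, edgeR adjusted p = 0.0684), which ranked 7 of all genes by p. Beside it stand other markers, given by unadjusted edgeR p under 0.05. All genes tested had such a p in 11.9% over both sexes, 6.52% in males and 4028 of 18204 in females. Microglial markers had it in 10 of 10 over both sexes (all above 0, median 0.39), 7 of 10 in males (0.47) and 5 of 10 in females (0.35), and 0 passed. Astrocyte markers had it in 10 of 14 over both sexes (all above 0, median 0.21), 1 of 14 in males (0.10) and 10 of 14 in females (0.31). The microglial sum in males was 796 to 1191 CPM with the knock-in and 604 to 816 CPM without it. The part of either list in the Gfap change was not tested. Without 5xFAD male replicate 10 the change of Gfap over both sexes was 0.58 and passed (edgeR adjusted p = 0.0258), as it did without knock-in female replicate 1, knock-in male replicate 10 or 5xFAD female replicate 2 (adjusted p 0.0240 to 0.0397). In bulk tissue, a change in the number of astrocytes and a change in the RNA each one holds cannot be told apart.

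Vim (ENSMUSG00000026728, chromosome 2) encodes vimentin, the filament protein that astrocytes share with endothelial, mesenchymal and immature glial cells. It was at 69.2, 88.3, 92.8 and 84.1 CPM in knock-in females, against 35.3, 66.7, 65.1, 42.0 and 50.6 CPM in 5xFAD females. The female groups did not overlap, the lowest knock-in library standing at 69.2 CPM and the highest 5xFAD library at 66.7 CPM. The log2 change in females was 0.69 (SE 0.21, edgeR adjusted p = 0.0575), just outside the threshold. Over 28 alternatives the adjusted p ran from 0.0168 under DESeq2 to 1.00 with the noncoding level as a covariate, and it passed in 10 of them. These were DESeq2, both other count filters (edgeR adjusted p = 0.0474 without a filter and 0.0473 at 1 CPM in 4 libraries) and leaving out any of 7 single libraries, with the lowest value without 5xFAD male replicate 10 (edgeR adjusted p = 0.0337). It was 0.164 without knock-in female replicate 4, 0.147 without knock-in female replicate 2, 0.138 without 5xFAD female replicate 1 and 0.137 with the authors' normalized values as offsets (edgeR adjusted p). In males Vim was at 43.8, 81.4, 64.6, 76.5 and 45.6 CPM with the knock-in and 67.8, 65.3, 63.9, 51.9 and 39.5 CPM without it. The male groups overlapped, with 2 of 5 knock-in males above the highest 5xFAD male (log2 change 0.11, SE 0.20, edgeR adjusted p = 0.949). Of 6 genes for filament partners and relatives (nestin, synemin, plectin, desmin and the lamins Lmna and Lmnb1), 0 passed in any genotype comparison. The nearest was Plec in females, a cytolinker that ties filaments to the membrane, at 128 CPM with the knock-in and 186 CPM without it (log2 change -0.53, edgeR adjusted p = 0.0535).

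Serpina3n (ENSMUSG00000021091, chromosome 12) encodes a secreted serine protease inhibitor related to human alpha-1-antichymotrypsin, a protein found in plaques. It was at 74.0, 82.8, 100.01 and 86.1 CPM in knock-in females, against 48.7, 67.7, 65.1, 42.0 and 60.3 CPM in 5xFAD females. All 4 knock-in females were above all 5 of the 5xFAD females, and Serpina3n rose in that comparison (log2 change 0.59, SE 0.17, edgeR adjusted p = 0.0402). The call was lost without knock-in female replicate 2, 4 or 5 or 5xFAD female replicate 1 or 4 (edgeR adjusted p 0.0722 to 0.145, log2 change 0.53 to 0.60), and likewise when libraries were scaled by total counts alone (edgeR adjusted p = 0.0756). In males it was at 67.9, 67.8, 63.5, 90.2 and 50.6 CPM with the knock-in and 57.2, 74.3, 43.2, 58.3 and 69.4 CPM without it. The male groups overlapped over most of their range (log2 change 0.17, SE 0.16, edgeR adjusted p = 0.887). Close paralogs could take or give reads in this gene cluster. Of 10 listed paralogs only 2 were in the count table, Serpina3g and Serpina3c, which summed to at most 2.78 CPM in any library. The part of shared reads in the Serpina3n level was not tested.

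Lcn2 (ENSMUSG00000026822, chromosome 2) encodes lipocalin 2, a secreted protein that binds iron-carrying siderophores and is among the most strongly induced genes of astrocytes after endotoxin. It was close to the limit of detection here, with 9, 10, 12 and 23 counts in knock-in females against 2, 3, 3, 3 and 0 counts in 5xFAD females. All 4 knock-in females lay above all 5 of the 5xFAD females, at 0.447 to 0.941 CPM and 0 to 0.157 CPM (exact two-sided permutation test, p = 0.00794, where 126 assignments are possible and this is the smallest p they can give). Males had 3, 8, 10, 2 and 9 counts with the knock-in and 0, 1, 5, 0 and 24 counts without it, with means of 0.317 and 0.324 CPM (exact two-sided permutation test, p = 0.984). The 24 counts were those of 5xFAD male replicate 10, the library with low noncoding RNA, and the male comparison turned on it. All 5 knock-in males were above the 5xFAD male median, and without that library the means were 0.317 CPM in knock-in males and 0.0780 CPM in 5xFAD males (exact two-sided permutation test, p = 0.0794). A count of 0 allows up to 3 counts, or 0.153 to 0.179 CPM in the 3 libraries at 0, and covers counting error only. The gene fell under the count filter and so is absent from the counts of genes called below; with no filter its log2 change in females was 2.46 (SE 0.94, edgeR adjusted p = 0.123). Neutrophils also make Lcn2, and the 3 of 7 neutrophil markers found in the count table summed to 0.318 to 1.64 CPM in knock-in females, 0.306 to 0.934 CPM in knock-in males, 0.207 to 1.48 CPM in 5xFAD females and 0.205 to 1.36 CPM in 5xFAD males.

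Promoter sequence is shown for the genes that led in females, because STAT3 is a known regulator of several of the 10 genes. Steap4 is shown as the only 1 of the 10 that held the STAT letters given below. The 250 bases before the annotated start were taken from RefSeq on GRCm38.p6, for Gfap from chr11:102897201-102897450 (minus strand), for Serpina3n from chr12:104406458-104406707 (plus strand), for Vim from chr2:13574061-13574310 (plus strand) and for Steap4 from chr5:7960222-7960471 (plus strand). Capitals mark matches to the STAT letters TTCNNNGAA or the TATA box letters TATAAA on either strand.
Gfap: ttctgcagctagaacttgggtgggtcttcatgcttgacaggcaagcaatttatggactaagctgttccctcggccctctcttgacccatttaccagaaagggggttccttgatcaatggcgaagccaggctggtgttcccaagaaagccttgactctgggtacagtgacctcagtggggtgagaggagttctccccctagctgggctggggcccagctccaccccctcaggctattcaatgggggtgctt
Serpina3n: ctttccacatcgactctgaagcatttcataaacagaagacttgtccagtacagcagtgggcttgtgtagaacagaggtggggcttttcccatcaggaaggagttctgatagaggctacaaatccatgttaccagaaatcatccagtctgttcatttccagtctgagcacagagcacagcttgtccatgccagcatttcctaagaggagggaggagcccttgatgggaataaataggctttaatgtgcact
Vim: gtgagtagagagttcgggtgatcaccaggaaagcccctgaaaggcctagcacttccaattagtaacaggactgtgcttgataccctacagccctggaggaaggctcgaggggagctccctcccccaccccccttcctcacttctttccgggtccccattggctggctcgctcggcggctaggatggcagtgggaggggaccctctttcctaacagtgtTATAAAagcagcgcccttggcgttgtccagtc
Steap4: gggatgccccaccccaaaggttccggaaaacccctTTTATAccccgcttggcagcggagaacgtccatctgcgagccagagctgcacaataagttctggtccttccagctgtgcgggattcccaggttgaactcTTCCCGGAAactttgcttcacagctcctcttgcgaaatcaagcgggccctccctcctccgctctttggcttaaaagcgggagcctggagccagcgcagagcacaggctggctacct
The STAT letters stood in 1 of the 10 genes, Steap4, starting 116 bases before its start, and 8.13% of the 27025 genes with a promoter in the table hold them. TATAAA stood in 3 of 10, in Vim at 32 bases before the start, in Steap4 on the opposite strand and in Cp, against 14.33% of those genes. Letters of an AP-1 site, a heat shock element and a CCAAT box were searched too. They stood in 1, 0 and 2 of 10, against 7.82%, 0.51% and 37.49% of those genes. These are descriptions of letters in a short window, and regulatory elements farther away were not searched.

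Among the receptors, Osmr (ENSMUSG00000022146, chromosome 15) encodes the subunit that joins gp130 to form the oncostatin M receptor. It was at 10.7, 14.3, 11.8 and 13.3 CPM in knock-in females, against 7.88, 10.7, 8.71, 8.56 and 9.14 CPM in 5xFAD females. Those groups did not overlap, by a margin of less than 0.1 CPM (log2 change 0.48, SE 0.19, edgeR adjusted p = 0.130). In males the levels were 6.82, 9.40, 11.9, 15.3 and 7.54 CPM with the knock-in and 11.3, 9.42, 9.23, 8.50 and 10.2 CPM without it (log2 change 0.07, SE 0.18, edgeR adjusted p = 0.965). The knock-in males held both the highest and the lowest Osmr level of the 19 libraries. Cd44 (ENSMUSG00000005087, chromosome 2), a receptor for hyaluronan, was at 5.86 ± 1.25 CPM in knock-in females and 5.12 ± 2.63 CPM in 5xFAD females (SD, n = 4 and 5), and at 6.87 ± 2.77 CPM in knock-in males and 7.16 ± 2.62 CPM in 5xFAD males (SD, n = 5 each). Its genotype change over both sexes was 0.06 on the log2 scale (SE 0.24, edgeR adjusted p = 0.949) and turned negative without 5xFAD female replicate 1 (-0.041) or knock-in male replicate 7 (-0.039). S1pr3 (ENSMUSG00000067586, chromosome 13), a receptor for sphingosine-1-phosphate, was at 12.7 to 14.6 CPM in knock-in females and 6.35 to 15.4 CPM in 5xFAD females, so the 5xFAD females reached both below and above the others (log2 change 0.30, SE 0.19, edgeR adjusted p = 0.364). Its males lay at 11.7 ± 1.61 CPM with the knock-in and 11.7 ± 0.836 CPM without it (SD, n = 5 each; log2 change 0.01). An exon of S1pr3 overlaps one of Gm32834 on the opposite strand by 45 bases, and whether the counting used strand is not given in the sources used here.

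Steap4 (ENSMUSG00000012428, chromosome 5) and Cp (ENSMUSG00000003617, chromosome 3) both handle metals: Steap4 is a membrane reductase of iron and copper, and Cp is ceruloplasmin, a copper-dependent enzyme that oxidises iron for export. Steap4 was at 0.645, 1.64, 4.99 and 2.13 CPM in knock-in females and 0.383, 1.78, 2.10, 1.504 and 0.511 CPM in 5xFAD females. Its spread was the widest of the 9 genes tested, from 0 counts in knock-in male replicate 6, where a count of 0 allows up to 0.145 CPM, to 96 counts in knock-in female replicate 4. The log2 change over both sexes was 0.74 with an SE of 0.52 (edgeR adjusted p = 0.610), and 0.43 without that female. Cp was at 14.5, 20.5, 19.8 and 13.1 CPM in knock-in females, against 6.84, 15.5, 12.7, 12.2 and 8.79 CPM in 5xFAD females. Knock-in replicates 2 and 4 were above every 5xFAD female, and the other knock-in females fell within their range (log2 change 0.60, SE 0.22, edgeR adjusted p = 0.112). In males Cp was at 13.2 ± 3.37 CPM with the knock-in and 12.4 ± 2.47 CPM without it (SD, n = 5 each). Both genes are also made outside astrocytes, and 9 choroid plexus markers summed to 3529 to 11577 CPM in knock-in females, 34.1 to 3487 CPM in knock-in males, 627 to 5323 CPM in 5xFAD females and 69.3 to 3519 CPM in 5xFAD males, with none at 0 throughout a group. The part of such tissue in these levels was not tested. Cp shares 108 exonic bases with Hps3 on the opposite strand. Hspb1 (ENSMUSG00000004951, chromosome 5), a small heat shock chaperone that also binds filaments, was at 12.8 ± 2.06 CPM in knock-in females and 9.84 ± 2.17 CPM in 5xFAD females (SD, n = 4 and 5), and at 12.7 ± 4.84 CPM in knock-in males and 9.46 ± 2.16 CPM in 5xFAD males (SD, n = 5 each). Its log2 change was 0.38 in females (SE 0.23, edgeR adjusted p = 0.345) and 0.43 in males (SE 0.22, edgeR adjusted p = 0.765), or 0.17 in males without knock-in male replicate 7. Of the male Hspb1 libraries, knock-in replicate 7 stood at 21.2 CPM and the other 9 between 6.08 and 11.7 CPM.

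Over both sexes, 0 of the 9 genes tested passed, against 0.022% of all genes tested (edgeR), and 5 of 9 had an unadjusted p under 0.05, against 11.9% of all genes tested. The ranges of all knock-in and all 5xFAD libraries were separate in either direction for 0 of the 9 genes tested, against 0.00549% of all genes tested, and overlapped for Lcn2 as well. All 9 log2 changes were above 0, with a median of 0.37, where 49.6% of all genes tested were above 0. This was not particular to these genes: over both sexes 14 of 14 astrocyte markers (median 0.21) and 10 of 10 microglial markers (0.39) were above 0. So were 7 of 7 leptomeningeal fibroblast markers (0.59) and 5 of 5 erythrocyte markers (0.64). Of the neuronal markers 2 of 6 were above 0 (-0.03), and of the noncoding RNAs 0 of 8 (-0.76). In females 2 of 9, Gfap and Serpina3n, were higher with the knock-in and 0 were lower, against a background of 1.13% higher and 4.43% lower (206 and 807 genes, or 43 and 1236 when scaled by total counts alone). The median log2 change of the 9 genes in females was 0.59, while that of all genes was 0.01. The ranges of the female groups were separate and higher with the knock-in for 3 of the 9 genes tested (Serpina3n, Vim and Osmr), against 3.86% of all genes tested, and for Lcn2, which lies outside that background. In males 0 of 9 passed, where the percentage of all genes called was 0 as well, and 1 of the 9, Gfap, had an unadjusted p under 0.05, a share near the 6.52% of all genes tested. The male ranges were separate and higher with the knock-in for 0 of the 9 genes tested, and overlapped for Lcn2, against 0.527% of all genes tested. The median log2 change of the 9 genes in males was 0.11. DESeq2 on the same counts called 1 of 9 over both sexes (Gfap, adjusted p = 0.000553).

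**Figure D2:**
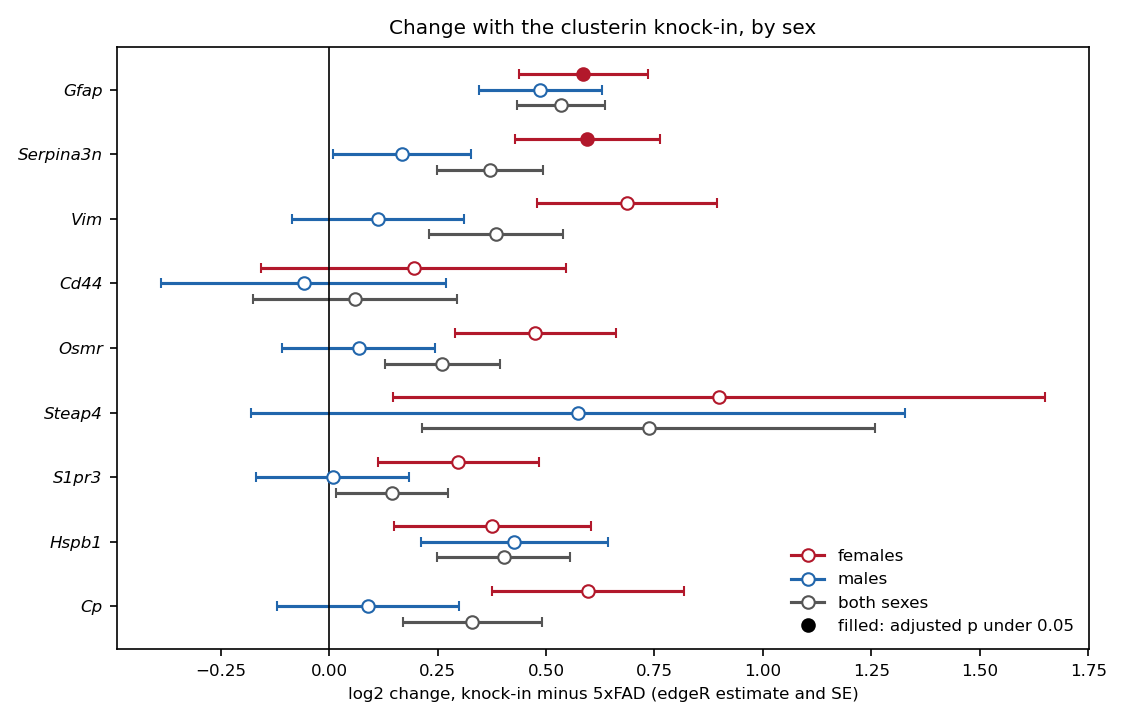
Log2 change, knock-in minus 5xFAD, of the 9 genes that passed the count filter, in females (red), males (blue) and both sexes (grey). Points are edgeR estimates and bars their SE, filled points have an adjusted p under 0.05; these are Gfap (0.59) and Serpina3n (0.59) in females.

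The female changes went along with other differences between the same libraries. Beside the noncoding RNA, whose ranges were separate, the summed astrocyte markers were 5707 to 6831 CPM in knock-in females and 4511 to 5241 CPM in 5xFAD females. The corresponding sums were 880 to 1327 and 760 to 988 CPM for 10 microglial markers, 271 to 485 and 94.7 to 300.3 CPM for 7 leptomeningeal fibroblast markers, and 192 to 355 and 100.2 to 159 CPM for 5 erythrocyte markers, in knock-in and in 5xFAD females. No marker of these lists was at 0 throughout a group. With the noncoding level as a covariate, Gfap in females had a log2 change of 0.44 (SE 0.24) and Serpina3n 0.40 (SE 0.27), and 0 of all genes tested passed (edgeR adjusted p = 1.00 for both genes, 316 genes with an unadjusted p under 0.05). Vim under that covariate was at 0.69 (SE 0.36), while Hspb1 turned to -0.22 (SE 0.34). Of the 8 noncoding RNAs behind the covariate, 7 were called lower in knock-in females (edgeR), against 4.43% of all genes tested. In females the covariate thus goes with genotype, and this fit cannot separate them. The part of cell composition in these changes was not tested.

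Whether the knock-in acted differently in the 2 sexes was tested by the interaction, the change in females minus that in males. It was above 0 for 8 of 9 genes, with a median of 0.33 on the log2 scale, where 48.0% of all genes tested were above 0 and their median was -0.02. By edgeR 0 of 9 passed (background 0.308%), as by DESeq2, and 0 had an unadjusted p under 0.05 (background 17.7%). The largest relative to its error were those of Vim (0.57, SE 0.29, edgeR adjusted p = 0.306) and Serpina3n (0.43, SE 0.23, edgeR adjusted p = 0.346). For Gfap it was 0.10 (SE 0.21, edgeR adjusted p = 0.854), so the call in females alone is no sign of a difference between the sexes. Between females and males of the knock-in genotype, 0 of 9 genes passed (background 0.0494%) and 0 had an unadjusted p under 0.05 (background 14.4%). Gfap was at 1352 ± 190 CPM in knock-in females and 1160.5 ± 185 CPM in knock-in males, and Vim at 83.6 ± 10.2 and 62.4 ± 17.3 CPM in the same groups (SD, n = 4 and 5). Between females and males of 5xFAD alone, 0 of 9 passed as well (background 0.0385%), and 0 had an unadjusted p under 0.05 (background 11.1%). There Gfap was at 901 ± 117 CPM in females and 828 ± 172 CPM in males (SD, n = 5 each).

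To see which of the genes varied together among animals of one group, group means were subtracted from log2 CPM and Pearson's r and Spearman's rho were taken over the 19 libraries. Of the 45 pairs, 37 had an r above 0, with a median of 0.301 and a range of -0.255 to 0.743. The highest was between Vim and Cd44 (r = 0.743, rho = 0.660, permutation p = 0.00141 and 0.00708, adjusted 0.0268 and 0.106, r = 0.661 without the 2 libraries farthest from the median of Vim). Steap4 with Cp (r = 0.712, rho = 0.656, adjusted permutation p = 0.0268 and 0.106, r = 0.722 without 2 libraries), Gfap with Serpina3n (r = 0.681, rho = 0.621, adjusted permutation p = 0.0448 and 0.133, r = 0.573 without 2 libraries) and Steap4 with S1pr3 (r = 0.614, rho = 0.451, adjusted permutation p = 0.0268 and 0.185, r = 0.585 without 2 libraries) passed for r too. No pair passed for both measures. Gfap and Vim, the filament partners, had an r of 0.152, and Lcn2 had the lowest mean r with the other 9 genes, at 0.0883. After Serpina3n, Gfap was closest to Osmr (r = 0.540), and after Cd44, Vim was closest to Cp (r = 0.612).

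**Figure D3:**
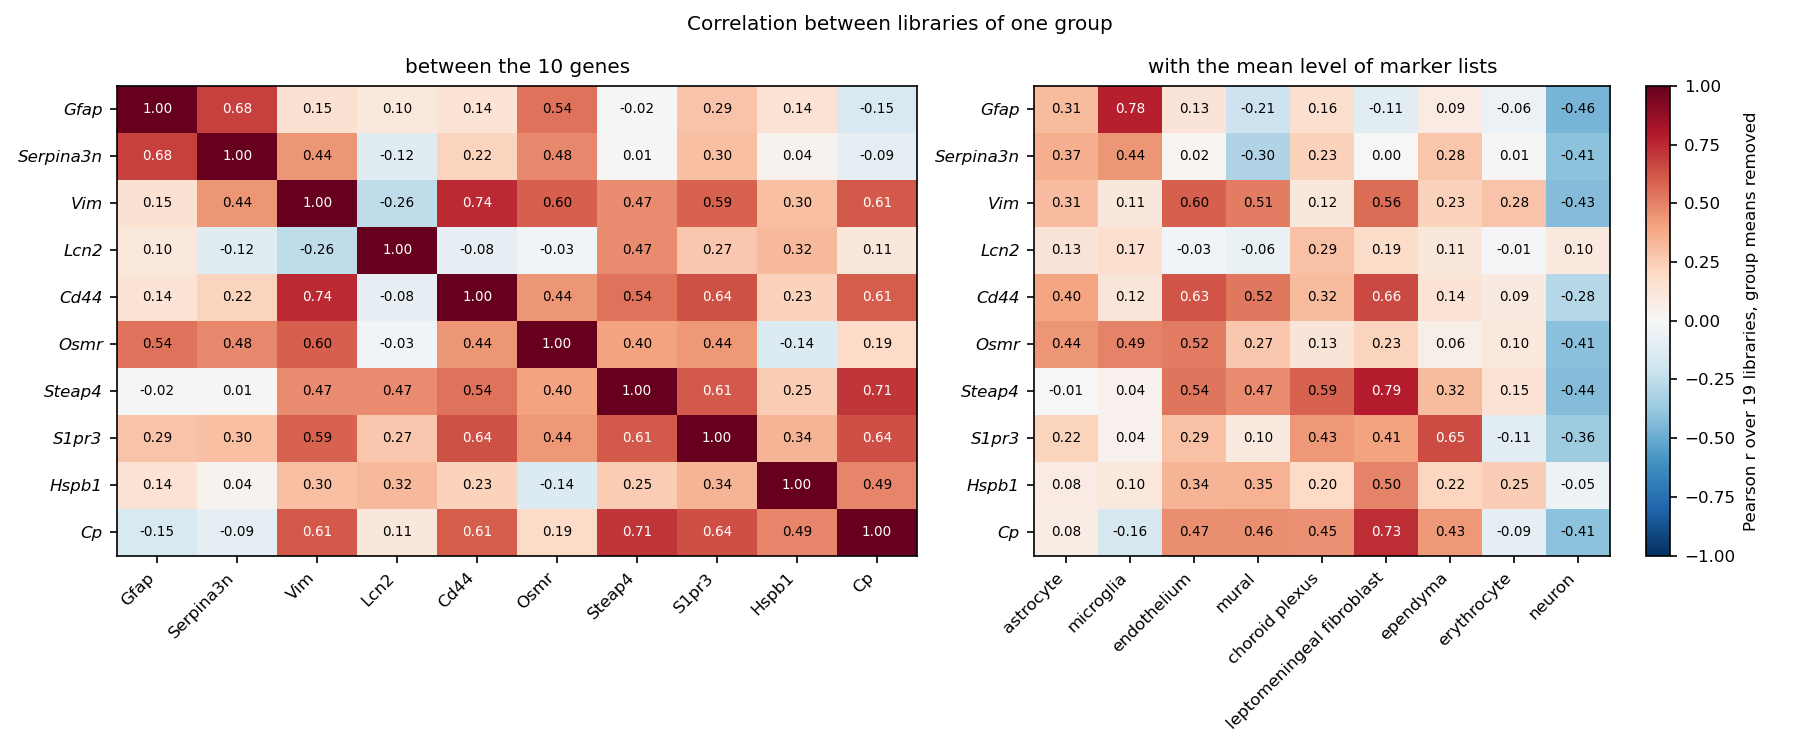
Pearson r over the 19 libraries after removal of the 4 group means, between the 10 genes (left) and of each gene with the mean log2 CPM of 9 marker lists (right); red is positive, blue negative. Gfap is highest with microglial markers (0.78), and Steap4 and Cp with leptomeningeal fibroblast markers (0.79 and 0.73).

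The same was done between each gene and the mean level of 9 cell type marker lists, 90 relations that were added after the data had been seen. Gfap followed the microglial markers (r = 0.779, rho = 0.789, permutation p = 0.00022 and 0.00031, adjusted 0.0198 and 0.0279, r = 0.764 without the 2 libraries farthest out), while its r with the astrocyte markers was 0.31. Steap4 followed the leptomeningeal fibroblast markers (r = 0.785, rho = 0.793, permutation p = 0.00067 and 0.00063, adjusted 0.0234 and 0.0283, r = 0.708 without 2 libraries). Cp did so for r (r = 0.735, rho = 0.651, permutation p = 0.00078 and 0.00651, adjusted 0.0234 and 0.195, r = 0.711 without 2 libraries). None of the other 87 relations passed for either measure. With the noncoding level, 0 of 10 genes passed, the farthest from 0 being Lcn2 (r = -0.575, rho = -0.356, permutation p = 0.0815 and 0.206, adjusted 0.407 and 0.952, r = -0.0968 without 2 libraries). Among 12829 genes, those most like Gfap were Axl (r = 0.845), Fcgr3 (0.835), Hvcn1 (0.829), Slco2b1 (0.825) and Ctsd (0.823), given as a description over 19 libraries. Serpina3n ranked 47 in that order and Osmr 224, whereas Vim ranked 3785 and Cp 9739. For Lcn2, the gene least correlated with the others, they were Ifitm2 (0.783), Lhfp (0.754), Pcp4l1 (0.752), Tmem132c (0.739) and Leo1 (0.726). Lcn2 had only 0 to 24 counts per library, and in 5xFAD male replicate 10 it lay 2.55 above its group mean in log2 CPM. The order for Lcn2 was not taken again without that library.

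**Figure D4:**
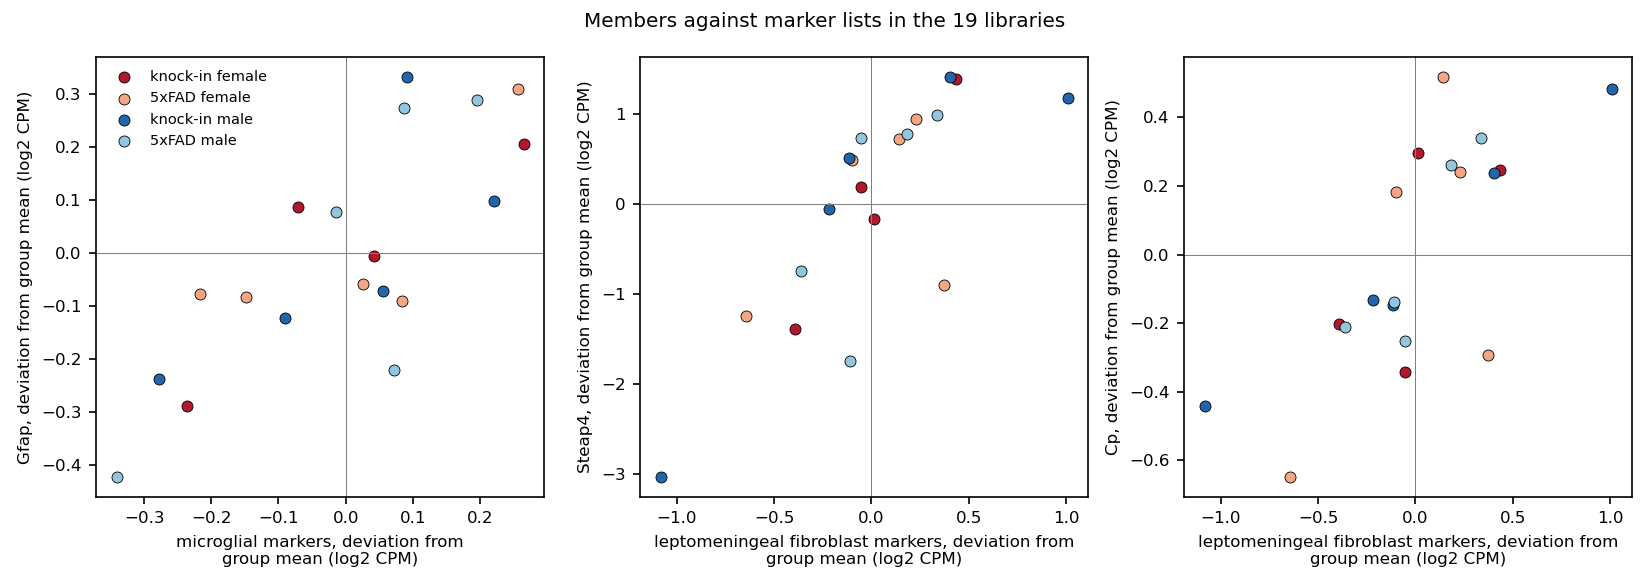
Gfap against microglial markers (left), and Steap4 (middle) and Cp (right) against leptomeningeal fibroblast markers, each as the deviation of log2 CPM from its group mean. Every point is 1 of the 19 libraries, coloured by group; r is 0.78, 0.79 and 0.73, and 1 5xFAD female lies at the lower right of both plots of fibroblast markers.

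Other genes of the reactive state were read from further lists. Over both sexes 0 genes passed in any of them. In females 1.13% of all genes tested were called higher, and the median log2 change of all genes was 0.01. Of 11 A1-type genes tested, 1 rose in knock-in females, Serping1, the inhibitor of complement C1 (12.8 CPM in knock-in females and 6.65 CPM in 5xFAD females, log2 change 0.95, SE 0.26, edgeR adjusted p = 0.0370), and the median of the list was 0.26. Of 11 A2-type genes tested, 1 rose, B3gnt5, a glycosyltransferase of lactoseries glycolipids (1.396 CPM in knock-in females and 0.505 CPM in 5xFAD females, log2 change 1.46, SE 0.38, edgeR adjusted p = 0.0303), with a list median of 0.49. In males 0 genes of either list passed, and the medians were 0.42 for A1-type and 0.48 for A2-type genes, against 0.01 for all genes. An unadjusted edgeR p under 0.05 was seen in males for 5 of 11 A1-type and 3 of 11 A2-type genes, against 6.52% of all genes tested. In females it was seen for 2 of 11 and 4 of 11, against 4028 of 18204 genes. RNAs of cytokine signalling through gp130 showed no call: 0 of 18 genes tested passed in either sex or over both, and the median change in females was 0.01. In males 10 of the 18 were above 0 (median 0.03). The lowest p there was that of Socs3, at 2.94 CPM with the knock-in and 1.72 CPM without it (log2 change 0.77, SE 0.27, edgeR adjusted p = 0.697). Socs3 went the other way in females, at 2.40 CPM with the knock-in and 3.15 CPM without it. Stat3 itself was at 66.5 CPM in knock-in females and 54.6 CPM in 5xFAD females (log2 change 0.28, SE 0.09, edgeR adjusted p = 0.0697), and the kinase Tyk2 at 14.0 and 21.3 CPM in those groups (log2 change -0.61, SE 0.19, edgeR adjusted p = 0.0593).

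Genes that act with single members were read against the same 1.13% of all genes called higher in females. Of 12 genes of hyaluronan synthesis and CD44 binding, 1 rose in females, Msn, encoding moesin, which links CD44 to actin (53.7 CPM in females with the knock-in and 38.5 CPM in 5xFAD females, log2 change 0.48, edgeR adjusted p = 0.0389). Of 10 genes of sphingosine-1-phosphate signalling other than S1pr3, 2 rose in females. These were S1pr1, another receptor of the lipid (159 and 122 CPM in knock-in and 5xFAD females, log2 change 0.39, edgeR adjusted p = 0.0282), and Sgpp1, a phosphatase that degrades it (55.4 and 40.7 CPM, log2 change 0.44, edgeR adjusted p = 0.0121). Of 15 genes of iron and copper handling 0 passed, with Fth1, the ferritin heavy chain, at 2455 CPM in females with the knock-in and 1725 CPM in 5xFAD females (log2 change 0.51, edgeR adjusted p = 0.0827). Of 10 small heat shock and related genes 0 passed, with Hspb8 at 25.2 CPM in females with the knock-in and 16.8 CPM in 5xFAD females (log2 change 0.59, edgeR adjusted p = 0.0607). Of 14 astrocyte markers 2 rose in females, Aqp4, the water channel of astrocyte endfeet (206 and 142 CPM in knock-in and 5xFAD females, log2 change 0.54, edgeR adjusted p = 0.0403), and Gjb6, encoding connexin 30 (52.2 and 38.0 CPM, log2 change 0.46, edgeR adjusted p = 0.0425). The 3 remaining genes of the core reactive set, Timp1, Cxcl10 and Aspg, did not pass in females (log2 changes 0.57, 0.24 and 0.07, edgeR adjusted p 0.511 to 0.902). Nor did they pass in males, where Cxcl10 was at 4.41 CPM with the knock-in and 1.51 CPM without it (log2 change 1.55, SE 0.48, edgeR adjusted p = 0.662). Timp1 and Aspg were at -0.08 and 0.08 in males on the log2 scale. Of 5 listed inducers of the A1 state, 4 were in the count table, Il1a and the C1q chains C1qa, C1qb and C1qc. These gave 0 calls of 4 tested in females and in males, with list medians of 0.18 and 0.63. In males, where 0 of all genes tested passed, 4 of 4 had an unadjusted edgeR p under 0.05, against 6.52% of all genes tested. In females 0 of 4 had such a p, against 4028 of 18204 genes. The C1q chains are also among the 10 microglial markers.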

How the data were processed

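One library per animal was made from total RNA of the left hippocampus after saline perfusion, and sequenced as read pairs on Illumina NovaSeq and HiSeq machines, per the labels' protocols. The authors deposited 3 tables. The estimated counts per gene that the authors deposited are whole numbers and were used as they stand for all tests. The deposited normalized counts, a signal scaled by the authors with factors that differ by gene and library, served as offsets in an alternative. A deposited table of variance-stabilized log2 values was not used. FastQC, Salmon, DESeq2, Seurat and the build mm39 are named in the submitters' processing notes, without versions or roles.

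Symbols, chromosomes and exonic lengths came from GENCODE M21, an annotation of GRCm38, so no coordinates are given except those of promoters from RefSeq GRCm38.p6. The tests used edgeR 4.0.16 under R 4.3.3, with TMM scaling, a robust quasi-likelihood F-test and filterByExpr at its usual 10 counts over the 4 groups, and were tested on simulated data. The genotype effect over both sexes had sex as a covariate, and the other 5 comparisons were contrasts of the 4 group means in a single model. Correlations used log2 CPM (prior count 2) with 100000 permutations within groups. The 36 pairs of libraries within a group all differed by more than sampling noise (chi-square per gene at least 10.3).

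The 10 genes and all gene lists were chosen with earlier results of these data known. Besides these genes, each list gives by name its members past the threshold, otherwise up to 3 with the lowest p. The Serpina3 paralogs are given by their sum, and the 5 genes most like Gfap and most like the least correlated of the 10 by r. Alternatives were DESeq2 1.42.0, limma-voom (limma 3.58.1), other scalings and filters, the noncoding level as a covariate, a replicate block and leaving out each library. Whether equal replicate numbers pair animals was checked by correlation of expression, and no pairing was seen, though this check cannot exclude one.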

Additional observations from a re-analysis of the deposited data

Results flagged for a closer look

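In 3 of 40 groups of 4 or 5 libraries, counting each of the 10 genes in each of the 4 groups, the highest library lay far from the rest by Dixon's criterion. Chance gives about 1 in 20. Gfap in 5xFAD females had its highest level in replicate 2, at 1110.1 CPM, with the next at 860 CPM and a gap of 0.928 of the group's range. Lcn2 in 5xFAD males had its highest level in replicate 10, at 1.31 CPM (24 counts), with the next at 0.261 CPM and a gap of 0.801 of the range. Hspb1 in knock-in males had its highest level in replicate 7, at 21.2 CPM, with the next at 11.7 CPM and a gap of 0.794 of the range.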

How the results depend on the processing

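The number of the 9 genes called over both sexes (0) was 1 under DESeq2 and 0 or 1 when a library was left out. In females (2) it was 0 with library size as the only scaling, with the noncoding level as covariate and with the replicate block. It was 3, with Vim added, under DESeq2, without a filter and at 1 CPM in 4 libraries, and 0 to 3 when a library was left out. Scaling by library size alone moved the median log2 change of all genes in females to -0.09 and that of the interaction to -0.15. In all genes tested, the calls over both sexes went from 4 to 107 under DESeq2 and to 127 without 5xFAD male replicate 10, and the 1013 calls in females became 0 without knock-in female replicate 2 or 4, 364 and 439 without 5xFAD female replicate 1 or 4, and 1810 under DESeq2. Under DESeq2 the calls in males were 19 rather than 0, those of the interaction 766 rather than 56, and those between the sexes 510 rather than 9 with the knock-in and 16 rather than 7 in 5xFAD. The 56 interaction calls became 0 with DESeq2 size factors, the authors' offsets, limma-voom, no filter, the noncoding covariate and the replicate block and in 14 of 19 cases where a library was left out, 402 with library size alone, and 489 without knock-in male replicate 7. The calls between the sexes with the knock-in were 340 without that library and 324 without 5xFAD male replicate 10. The replicate block gave 0 calls among all genes in females. Same-numbered libraries correlated between -0.203 and 0.119 and 1 of 9 matched its own number best, so no pairing by number was seen. Such correlations cannot exclude a shared order of handling, which the labels do not give.

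Signs turned in these cases. In females, Hspb1 was -0.22 with the noncoding covariate. In males, S1pr3 was -0.025 and Cp -0.10 with the authors' normalized values as offsets, and S1pr3 was -0.0025 under limma-voom. For the interaction, Gfap was -0.041 with library size and -0.062 with the noncoding covariate, Steap4 was -0.26 with that covariate, and Hspb1 was 0.12 with the authors' offsets and 0.0052 under limma-voom. For females minus males of the knock-in, Hspb1 was -0.047 with library size and -0.42 with the noncoding covariate. For females minus males of 5xFAD, Gfap was -0.031 and Hspb1 -0.065 with the authors' offsets, and S1pr3 was 0.041 with library size. The causes were not tested.

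Leaving out 1 library at a time gave these ranges where a sign turned. Cd44 ran from -0.041 to 0.22 over both sexes, -0.019 to 0.56 in females and -0.27 to 0.17 in males. In males, Vim ran from -0.0016 to 0.22, Osmr from -0.13 to 0.18, S1pr3 from -0.058 to 0.082 and Cp from -0.047 to 0.19. For the interaction, Steap4 ran from -0.32 to 0.71 and Hspb1 from -0.17 to 0.21. Hspb1 ran from -0.070 to 0.27 for sex within the knock-in. For sex within 5xFAD, Hspb1 ran from -0.067 to 0.18, Serpina3n from -0.18 to 0.0019, S1pr3 from -0.18 to 0.13 and Cp from -0.26 to 0.017. The mean difference of Lcn2 in males ran from -0.089 to 0.24 CPM, and in females from 0.42 to 0.59 CPM (exact two-sided permutation p 0.0179 to 0.0286). Without a turn of sign, Steap4 ran from 0.43 to 0.90 over both sexes, 0.25 to 1.24 in females and 0.22 to 0.90 in males, Hspb1 from 0.17 to 0.52 and Serpina3n from 0.043 to 0.25 in males, S1pr3 from 0.13 to 0.48 in females, and the interaction of Gfap from 0.023 to 0.22. Depth limits Lcn2, with at most 24 counts in a library, and Steap4, with at most 96.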
